A study of Mus musculus with 2 samples.

Results

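The Hox genes are the 39 genes of the 4 mouse Hox clusters, and all 39 were present among the 32285 genes counted in each of 2 fetal lung libraries. Members were taken by name (Hox, a cluster letter a to d, and a number), with no use of their values. The chromatin side of the description covers every accessible region that lay between the outermost gene starts of a cluster, extended by 20 kb on either side, which gave 95 of 134977 regions in the library called PBS and 89 of 120379 in the library called OVA. The study asked whether asthma of the mother alters fetal lung cells. Wild-type C57BL/6J females of the OVA group were sensitized by repeated intraperitoneal injections of 100 µg ovalbumin (OVA) each, in alum. Once pregnant, they received repeated intranasal doses of 500 µg OVA each between gestation days 4 and 17, whereas PBS females received alum and then PBS alone. The sires were untreated, and lungs were taken at gestation day 18, from 8 fetuses of 1 OVA dam and 9 fetuses of 1 PBS dam, pooled into 1 library each. The sort took type 2 innate lymphoid cells (ILC2), further CD45+ immune cells and EpCAM+ epithelium, which were pooled, and RNA and chromatin accessibility were read from the same nuclei. With 1 library per group, every comparison of OVA with PBS compares 2 libraries and not the treatments, no p-value can be given, and all 95% intervals cover counting error only.

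Hox genes encode homeodomain transcription factors that give cells their position along the body axis. Genes of like number in different clusters are paralogs, and in the embryo the low-numbered genes of a cluster are used in anterior tissue and the high-numbered genes in posterior and distal limb tissue. In the lung the best known member is Hoxa5, which acts in the mesenchyme and whose loss in mice leads to defects of the trachea and of the airspaces. Pbx and Meis proteins bind DNA together with Hox proteins, retinoic acid switches on the low-numbered genes, and Polycomb complexes hold the unused genes of a cluster silent while Trithorax proteins keep the used ones active.

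Nuclei with at least 200 genes and at most 60% mitochondrial UMIs (unique molecules) numbered 4572 (PBS library) and 5246 (OVA library). They were given a cell type by gates on marker genes, after removal of 167 and 120 nuclei that passed the gates of more than 1 lineage, and 2028 and 2613 nuclei were gated. Although the sort named no stromal cells, 688 PBS and 922 OVA nuclei passed the stromal gates (fibroblast, myofibroblast or pericyte), beside 635 and 949 immune and 590 and 590 epithelial nuclei. Markers of the gate were among its 10 leading genes except for myofibroblasts in both libraries and alveolar type 2 (AT2) cells in the OVA library, where neither these nor markers of other gates were among them. The gates were set on these markers, so their presence does not check the labels. A marker of another gate was among the leading genes of alveolar type 1 nuclei in both libraries. The same held for fibroblasts, macrophages and ILC2 of the OVA library. The libraries differed in depth, with a median of 769.5 against 1320 nuclear-gene UMIs per gated nucleus, and in mitochondrial share, with 36.9% against 27.6% of UMIs. They shared 54 barcodes, of which 8 were gated in both.

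The PBS library held 952 Hox UMIs and the OVA library 1395. The Hoxa cluster (chr6:52158317-52260880, mm10, from first to last gene start) held 493 and 873 of these, and the Hoxb cluster (chr11:96194316-96365752) 449 and 511. The Hoxc cluster (chr15:102921103-103034395) held 5 and 10 UMIs, and the Hoxd cluster (chr2:74668310-74762980) 5 and 1. Lung Hox RNA at this stage therefore came almost wholly from the A and B clusters, and no Hoxc or Hoxd gene had more than 4 UMIs. Of the 11 Hoxa and 10 Hoxb genes, 5 and 5 had at least 20 UMIs, and Hoxa11 and Hoxb13 had 0, as had Hoxc10, Hoxc12, Hoxd1, Hoxd4, Hoxd10, Hoxd11 and Hoxd12. In stromal nuclei a count of 0 allows up to 3.75 CPM in the PBS and 1.63 CPM in the OVA library, where CPM are UMIs per 1000000 nuclear-gene UMIs.

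Within the clusters RNA was found at the low-numbered end. In stromal nuclei the genes of paralog groups 1 to 5 gave 95.2% (95% Clopper-Pearson interval 92.3 to 97.2) of the 334 Hox UMIs in the PBS library and 95.6% (93.6 to 97.0) of the 630 in the OVA library. Groups 6 to 8 gave 3.89% and 4.13%. The 16 genes of groups 9 to 13 gave 3 and 2 UMIs in all. Over all kept nuclei of both libraries Hoxa5 had the most UMIs (848), followed by Hoxb3 (408), Hoxa3 (391), Hoxb4 (275) and Hoxb5 (161). The order differed per kb of gene span, where Hoxa5 led with 299 UMIs per kb, followed by Hoxb4 with 81.6 and Hoxb5 with 57.8. Hoxb2 and Hoxb3 had 16.6 each, Hoxa4 14.9, Hoxa2 13.3 and Hoxa3 8.83. In stromal nuclei group 4 was carried by the B cluster, with Hoxa4 at 8.20% and 7.46% of the Hoxa4 and Hoxb4 UMIs, and group 5 by the A cluster, with Hoxa5 at 76.9% and 87.9% of the Hoxa5 and Hoxb5 UMIs. The annotation places Hoxa4, Hoxa5 and Hoxa6 inside the span of Hoxa3 on the same strand, so the division of UMIs between these 4 genes is uncertain.

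The promoter sequences of 4 Hoxa and Hoxb genes are shown, because they stand for the members on which the results turn: Hoxa5, with the most RNA; Hoxb4, the group 4 member; Hoxa2, from the same end of the A cluster; and Hoxa11, from the other end, with 0 UMIs. Each is the 250 bases before the RefSeq gene start (GRCm38.p6), read 5′ to 3′ on the strand of the gene, and lies outside the transcript. Hoxa5 is on the minus strand at chr6:52204588-52204837, Hoxb4 on the plus strand at chr11:96318017-96318266, Hoxa2 on the minus strand at chr6:52164832-52165081, and Hoxa11 on the minus strand at chr6:52245811-52246060. Capitals mark matches, on either strand, to the CCAAT box (spelled as its name), the TATA box searched as TATAAA, the short Meis motif TGACAG, the joint Hox and Pbx motif TGATNNAT or the nuclear receptor motif AGGTCA, of the kind that retinoic acid receptors bind.
Hoxa5: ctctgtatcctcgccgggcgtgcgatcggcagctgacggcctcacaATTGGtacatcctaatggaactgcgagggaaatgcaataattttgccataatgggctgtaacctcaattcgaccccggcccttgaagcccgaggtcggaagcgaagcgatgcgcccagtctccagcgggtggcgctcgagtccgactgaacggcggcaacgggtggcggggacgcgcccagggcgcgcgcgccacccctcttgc
Hoxb4: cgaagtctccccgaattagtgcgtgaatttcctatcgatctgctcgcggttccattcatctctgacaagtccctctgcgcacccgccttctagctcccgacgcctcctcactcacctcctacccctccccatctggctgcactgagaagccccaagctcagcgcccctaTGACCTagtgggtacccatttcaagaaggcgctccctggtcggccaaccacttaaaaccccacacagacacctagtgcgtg
Hoxa2: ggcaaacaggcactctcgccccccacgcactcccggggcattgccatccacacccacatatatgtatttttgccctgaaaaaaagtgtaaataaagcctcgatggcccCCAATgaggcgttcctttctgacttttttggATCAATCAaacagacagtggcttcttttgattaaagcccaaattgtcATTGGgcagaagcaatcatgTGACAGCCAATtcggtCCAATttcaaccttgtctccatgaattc
Hoxa11: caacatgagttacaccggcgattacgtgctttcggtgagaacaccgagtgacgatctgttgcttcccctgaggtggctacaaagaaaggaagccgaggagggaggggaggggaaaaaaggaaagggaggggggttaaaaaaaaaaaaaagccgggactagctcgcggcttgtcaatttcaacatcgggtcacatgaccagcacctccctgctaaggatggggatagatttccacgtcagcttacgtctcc

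The Hoxa5 promoter held 28 CpG dinucleotides, against 14 for Hoxb4, 13 for Hoxa11 and 6 for Hoxa2. The median over 24 promoters of 22 Hox genes was 12.5, against 6 over all 32851 promoters of the table. Hoxa5 had a CCAAT match 204 bases before its start, and Hoxb4 an AGGTCA match 81 bases before its start. Hoxa2 had 4 CCAAT matches, at 142, 64, 38 and 28 bases, a TGACAG match at 44 and a TGATNNAT match at 111. The TGACAG and CCAAT matches at 44 and 38 bases adjoin each other, and no match was found in the Hoxa11 window. CCAAT stood in 14 of the 24 Hox promoters and in 33.8% of all promoters, TATAAA in 4 and 12.4%, TGACAG in 2 and 15.9%, TGATNNAT in 4 and 7.68%, and AGGTCA in 6 and 14.0%. These are letter matches only. All 250 bases shown for Hoxa5 lay inside a region accessible in both libraries, and none of those shown for the other 3 genes did.

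The first comparison asked in which lineages the Hox genes were transcribed. The summed level of the 39 genes was 417 UMIs per 1000000 nuclear-gene UMIs (CPM; interval 374 to 465) in stromal nuclei of the PBS library and 342 (316 to 370) in those of the OVA library. In immune nuclei it was 86.8 (63.5 to 116) and 40.4 (30.1 to 53.1) CPM, and in epithelial nuclei 37.0 (25.9 to 51.3) and 13.7 (8.27 to 21.5). Stromal nuclei stood above both other lineages in both libraries with no overlap of the intervals. The size of the difference depended on the mitochondrial limit. With at most 20% mitochondrial UMIs and the gates held, the log2 difference of stromal from immune nuclei was 0.98 (-0.41 to 2.88) in PBS, an interval that spans 0, and 2.24 in OVA, and with the gates set anew it was 1.22 and 1.08. The stromal level was 4.81-fold (3.53 to 6.70) that of immune nuclei in PBS and 8.47-fold (6.36 to 11.5) in OVA, and 11.3-fold (7.98 to 16.4) and 24.9-fold (15.8 to 41.7) that of epithelial nuclei.

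By gate, fibroblasts held 456 and 374 CPM in the PBS and OVA libraries, and myofibroblasts, the contractile stromal cells of the airways and septa, 436 and 332. Pericytes, which line capillaries, held 293 and 252 CPM and endothelial nuclei 240.1 and 199. Fibroblasts and myofibroblasts did not differ beyond counting error, with a log2 difference of -0.07 (-0.42 to 0.28) in PBS and -0.17 (-0.44 to 0.09) in OVA. Pericytes were below fibroblasts in both libraries, by -0.64 (-1.15 to -0.16) and -0.57 (-0.95 to -0.21). Macrophages held 68.0 and 43.2 CPM, ILC2 66.3 and 29.2, alveolar type 1 (AT1) nuclei 42.3 and 7.90 and AT2 nuclei 31.6 and 18.7. Mast cells or basophils gave 256 CPM in PBS from only 12 UMIs and 74.7 CPM in OVA from 11.

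**Figure D1:**
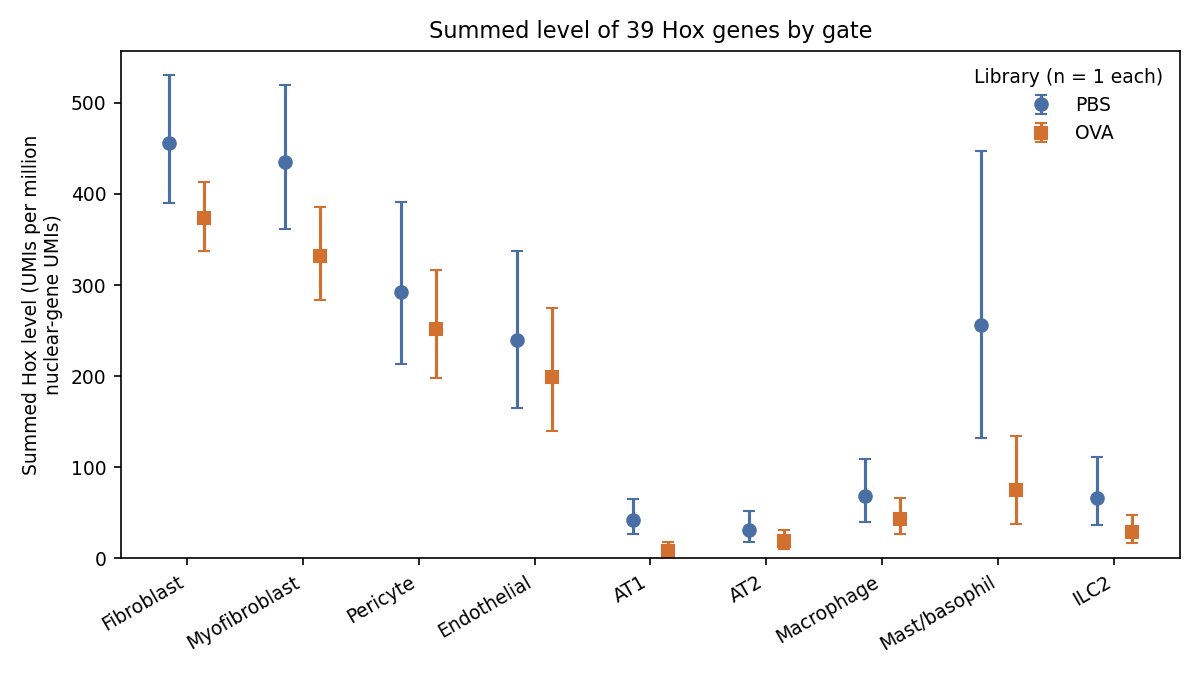
Summed level of the 39 Hox genes (y axis, UMIs per 1000000 nuclear-gene UMIs) in each marker gate (x axis) of the PBS (circles) and OVA (squares) library. Bars are exact 95% Poisson intervals. Fibroblast, myofibroblast, pericyte and endothelial gates sit at 199 CPM or above in both libraries, while macrophage, ILC2, AT1 and AT2 gates sit at 68.0 CPM or below.

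Single genes, which are parts of this sum, were compared too. Of the 39 members, 6 had at least 20 UMIs over stromal and immune nuclei: Hoxa3, Hoxa5, Hoxb2, Hoxb3, Hoxb4 and Hoxb5. Of these, 5 were at least 2-fold higher in stromal nuclei in both libraries, where 17.1% of the 11589 genes tested were, and 0 were at least 2-fold higher in immune nuclei, where 14.7% were. Members entered this count, and those against epithelial nuclei and macrophages, mostly through stromal nuclei. These counts are therefore descriptions and add no support to the summed result. Hoxb2, a gene of hindbrain and neural crest patterning, was the exception, with 11 stromal and 4 immune UMIs in PBS. Against epithelial nuclei all 6 were at least 2-fold higher in stromal nuclei in both libraries, beside 14.9% of all genes. Against macrophages all 5 that could be tested were at least 2-fold higher in fibroblasts, beside 18% of all genes. With a minimum of 50 UMIs, which Hoxb4 and Hoxb5 did not reach, the count was 3. With nuclei of at most 20% mitochondrial UMIs it was 0 with gates set anew and 3 with gates held. The number of members tested at that limit is not given.

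Hoxa5 gave 103 stromal UMIs (129 CPM) and 9 immune UMIs (17.0 CPM) in the PBS library, and 225 (122 CPM) and 22 (17.4 CPM) in the OVA library. The log2 difference of stromal from immune nuclei was 2.92 (1.94 to 4.09) in PBS and 2.81 (2.18 to 3.51). Hoxb3, a gene of hindbrain and pharyngeal arch patterning, gave 73.7 against 5.66 CPM in PBS and 65.2 against 4.76 CPM in OVA, the largest log2 ratio among the 5 in either library (3.70 and 3.78). Hoxa3, needed for thymus and parathyroid formation, gave 58.7 against 11.3 CPM and 69.0 against 7.13 CPM. Hoxb4, known from blood stem cells and body axis patterning, gave 70.0 against 18.9 CPM and 33.7 against 3.17 CPM. Hoxb5, which is expressed in the mesenchyme of branching airways, gave 38.7 against 9.43 CPM and 16.9 against 3.17 CPM.

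At the level of nuclei, 33.6% of PBS and 42.2% of OVA stromal nuclei had at least 1 Hox UMI, against 5.83% and 4.74% of immune and 4.07% and 2.88% of epithelial nuclei, at the unequal depths of the gates. After each nucleus was thinned to 500 UMIs and shallower nuclei were left out, the shares were 20.6% (110 of 533) and 15.2% (136 of 895) for stromal nuclei, 3.93% (17 of 433) and 2.11% (18 of 853) for immune nuclei, and 1.35% (6 of 443) and 0.382% (2 of 524) for epithelial nuclei. Fibroblasts stood at 22.4% and 14.9%, myofibroblasts at 20.1% and 17.1% and pericytes at 19.0% and 15.2%. A stromal nucleus at equal depth thus had a Hox UMI several times as often as an immune or epithelial one. The order of the 3 stromal gates was not the same in the libraries.

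**Figure D2:**
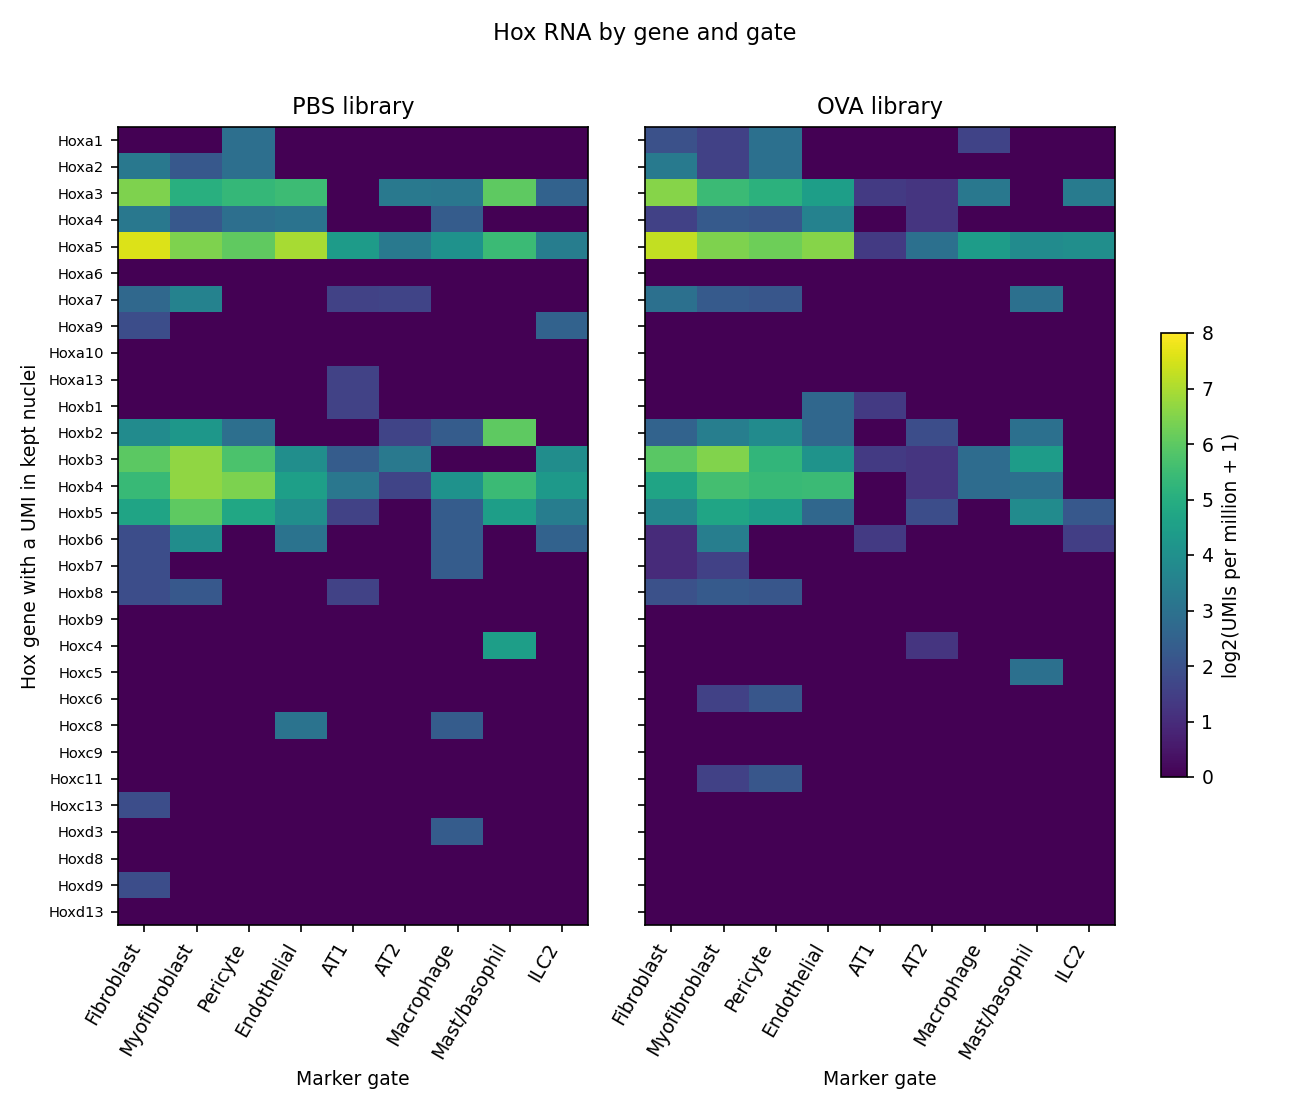
Level of each Hox gene with at least 1 UMI in the kept nuclei (rows, in cluster order), as log2 of CPM plus 1, in each marker gate (columns) of the PBS (left) and OVA (right) library. The bright rows are Hoxa3, Hoxa5, Hoxb3, Hoxb4 and Hoxb5 in the fibroblast, myofibroblast and pericyte columns, while rows of Hoxc and Hoxd genes are dark or hold single UMIs.

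Droplet data can hold free RNA of other cells, whose level was not measured here, so the Hox level outside the stroma was set beside that of 6 other stromal genes (Col1a1, Col1a2, Col3a1, Pdgfra, Eln and Mfap4, chosen after values were seen), each as a percent of its stromal level. In macrophages the Hox genes reached 16.3% (9.38 to 26.5) in PBS and 12.6% (7.75 to 19.4) in OVA, and the 6 genes 14.2% and 8.62%. In ILC2 the Hox genes reached 15.9% (8.59 to 27.0) and 8.54% (4.85 to 14.0), and the 6 genes 15.8% and 6.54%. In AT1 nuclei the Hox genes were at 10.1% and 2.31% and the 6 genes at 8.19% and 2.28%, and in AT2 nuclei the Hox genes were at 7.56% and 5.46% and the 6 genes at 6.72% and 6.59%. In each of these 4 gates the summed value of the 6 genes lay inside the Hox interval in both libraries. Most single genes lay inside it too, and those that did not lay below it. In macrophages these were Pdgfra, at 5.31% in PBS and 3.63% in OVA, Col3a1 in PBS (7.64%) and Eln in OVA (7.07%). In ILC2 of the OVA library they were Eln (4.42%) and Pdgfra (3.68%). In the PBS library they were also Col1a2 in AT1 (5.88%) and Pdgfra in AT2 nuclei (2.79%). The summed Hox genes were thus not distinguishable from the sum of the 6 other stromal genes in these gates at this depth. The source of either signal was not tested. In mast cells or basophils the Hox genes were at 61.3% from 12 PBS UMIs, and the interval, 31.3% to 108%, lay just above the 29.9% of the 6 genes, whereas in OVA 21.8% was close to 22.6%.

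Endothelial nuclei lay above the 6 genes in both libraries. Their Hox level was 57.5% (38.9 to 82.3) of the stromal level in PBS and 58.2% (40.6 to 81.1) in OVA, whereas the 6 genes stood at 20.5% and 11.8%. Hoxa5 gave 17 of 33 and 17 of 37 Hox UMIs there, at 124 and 91.5 CPM. The gate held only 21 and 28 nuclei, the Hox UMIs came from 11 and 8 of them, and after thinning 3 of 19 and 0 of 22 nuclei had 1 (upper bound 15.4% for the latter). The counting interval therefore understates the error of this level.

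**Figure D3:**
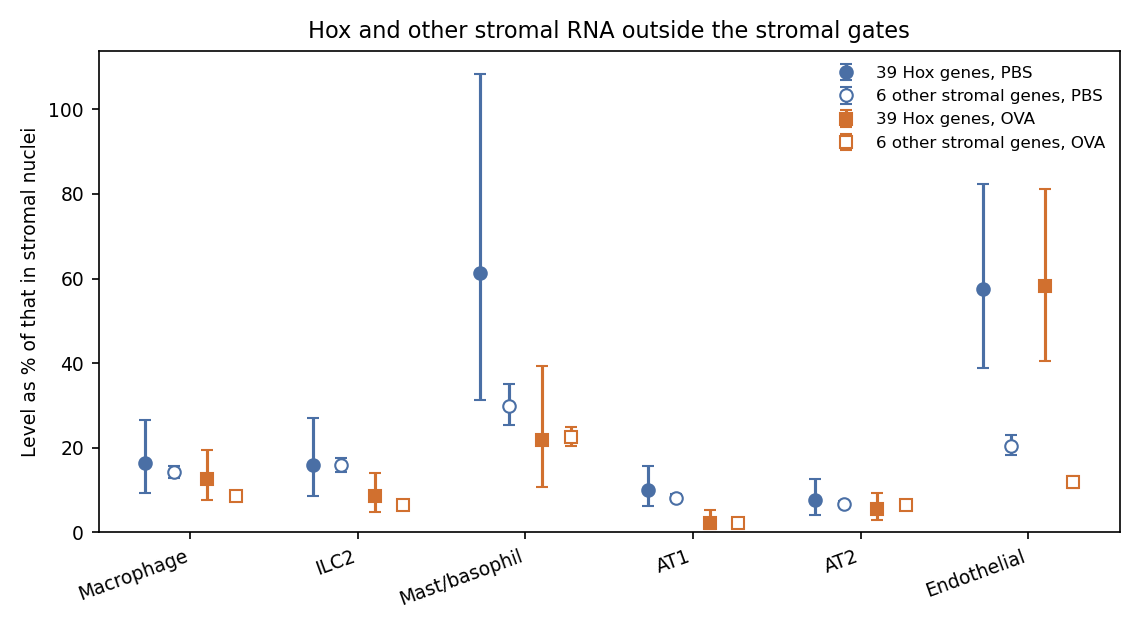
Level outside the stromal gates as a percent of the level in stromal nuclei (y axis), for the 39 Hox genes (filled) and 6 other stromal genes (open), in the PBS (circles) and OVA (squares) library, with exact 95% intervals of the ratio. Filled and open symbols lie close together for macrophages, ILC2, AT1 and AT2, and apart for endothelial nuclei, where the Hox genes are at 57.5% and 58.2%, and for mast cells or basophils of the PBS library, at 61.3%.

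ILC2 and macrophages, a lymphoid and a myeloid type, were compared for Hox RNA. ILC2 gave 14 UMIs in PBS and 16 in OVA, and macrophages 17 and 21. The log2 difference of ILC2 from macrophages was -0.04 (-1.17 to 1.07) and -0.56 (-1.60 to 0.45), so that a difference of up to about 2-fold in either direction was not resolved in PBS. By value, the immune Hox level was lower where the mitochondrial share was higher, but the intervals of these classes of nuclei overlapped in each library. Among immune nuclei with at most 20%, 20 to 40% and 40 to 60% mitochondrial UMIs, the Hox level was 217 (4 UMIs), 118 and 64.2 CPM in PBS and 74.1, 36.9 and 27.4 CPM in OVA, and that of the 6 other stromal genes was 2981, 2946 and 1255 CPM and 2508, 991 and 609.7 CPM. The part of this in the stromal to immune difference was not tested. The values given above for the 20% limit with the gates held rest on 16 PBS and 119 OVA immune nuclei. With the gates set anew on such nuclei the OVA macrophage gate held 31 Hox UMIs in 44 nuclei, against 4 in 21 with the gates held.

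The stromal gates differed in the share of each cluster. Fibroblasts took a larger share of their Hox RNA from the A cluster than myofibroblasts did. Of all Hoxa and Hoxb UMIs in fibroblasts, Hoxa gave 66.7% (110 of 165; interval 58.9 to 73.8) in PBS and 71.4% (274 of 384; 66.5 to 75.8) in OVA. In myofibroblasts Hoxa gave 31.1% (38 of 122; 23.1 to 40.2) and 42.9% (73 of 170; 35.4 to 50.7). The odds of Hoxa against Hoxb were 4.40 times as high in fibroblasts (2.60 to 7.54) in PBS and 3.30 times as high (2.23 to 4.90) in OVA. Pericytes were between, with 42.2% and 52.8%, and below fibroblasts in both libraries (odds of fibroblasts over pericytes 2.72, 1.32 to 5.70, and 2.22, 1.29 to 3.84), but not separable from myofibroblasts. In endothelial nuclei Hoxa gave 75.0% of 32 UMIs and 62.2% of 37.

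The same shift was seen within paralog pairs. Hoxa3 made up 58.2% (32 of 55) and 60.1% (95 of 158) of the Hoxa3 and Hoxb3 UMIs in fibroblasts but 24.3% (9 of 37) and 32.4% (22 of 68) in myofibroblasts. Hoxa5 made up 88.5% and 92.9% of the Hoxa5 and Hoxb5 UMIs in fibroblasts and 57.1% and 77.6% in myofibroblasts. In group 4 Hoxb4 had most UMIs in both gates, with Hoxa4 at 16.7% (3 of 18) and 7.41% (2 of 27) in fibroblasts and 3.45% (1 of 29) and 7.41% (2 of 27) in myofibroblasts, too few to compare. Both libraries showed the shift in groups 3 and 5, each from 1 pool of fetuses. Since Hoxa5 lies inside the annotated span of Hoxa3 on the same strand, these groups cannot be taken as independent of each other.

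**Figure D4:**
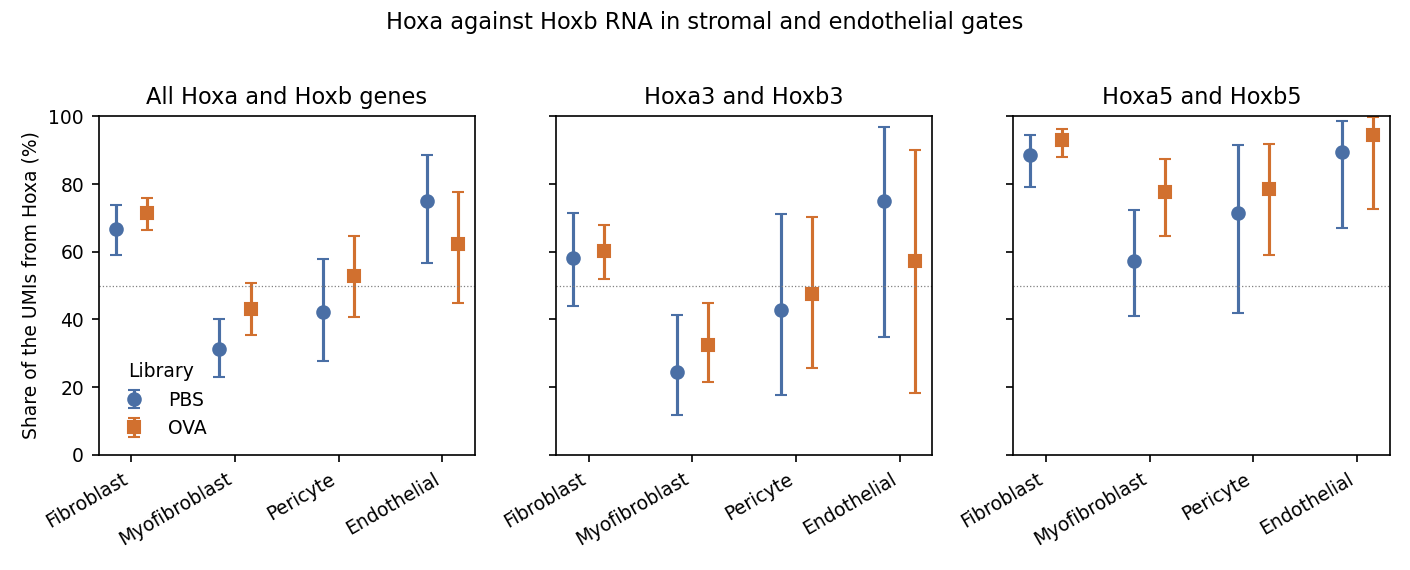
Share of UMIs that came from the A cluster (y axis, percent) in fibroblast, myofibroblast, pericyte and endothelial gates, for all Hoxa and Hoxb genes (left), Hoxa3 with Hoxb3 (middle) and Hoxa5 with Hoxb5 (right), in the PBS (circles) and OVA (squares) library with exact 95% binomial intervals. In the left panel fibroblasts lie at 66.7% and 71.4% and myofibroblasts at 31.1% and 42.9%, with no overlap of their intervals.

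Hoxa5 was at 188 CPM (69 UMIs) in PBS and 154 CPM (158 UMIs) in OVA fibroblasts, and at 85.7 CPM (24 UMIs) and 86.8 CPM (45 UMIs) in myofibroblasts. The log2 difference of myofibroblasts from fibroblasts was -1.14 (-1.87 to -0.45) and -0.83 (-1.34 to -0.34). Hoxa3 went the same way, from 87.4 and 92.5 CPM in fibroblasts to 32.1 and 42.4 CPM in myofibroblasts, and was the 1 member of 6 tested that was at least 2-fold lower in both libraries, where 6.01% of all genes were. Hoxb4 went the other way, with 41.0 and 24.3 CPM in fibroblasts and 100.0 and 48.2 CPM in myofibroblasts. Hoxb5 did so too, with 24.6 and 11.7 CPM against 64.3 and 25.1 CPM, and was the 1 member of 6 at least 2-fold higher in both libraries, where 8.03% of all genes were, although its OVA interval reached -0.15. Hoxb3 was at 62.8 and 61.3 CPM in fibroblasts and 100.0 and 88.7 CPM in myofibroblasts, with intervals that spanned 0. In pericytes 2 of 5 members, Hoxa3 and Hoxa5, were at least 2-fold lower than in fibroblasts in both libraries, where 7.11% of all genes were, and 0 were higher, where 8.15% were.

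The third question was whether Hox RNA differed between the OVA and the PBS library within a gate. In fibroblasts the summed level was 456 CPM in PBS and 374 CPM in OVA, a log2 difference of -0.29 (-0.55 to -0.02), and in myofibroblasts it was 436 and 332 CPM, or -0.39 (-0.74 to -0.05). These differences depended on settings. When all UMIs, mitochondrial ones included, formed the total, they were -0.17 (-0.43 to 0.11) and -0.20 (-0.54 to 0.15). The fibroblast interval also spanned 0 under the joint filter (-0.24, -0.56 to 0.09), under a stricter gate (-0.33, -0.67 to 0.03) and with at most 20% mitochondrial UMIs (-0.24 with gates set anew, -0.21 with gates held). Over all stromal nuclei the A cluster was level, at 209 CPM in each library (0.00, -0.26 to 0.27), while the B cluster fell from 206 to 131 CPM (-0.65, -0.95 to -0.36; -0.50 on the scale of all UMIs). Hoxb4 went from 70.0 to 33.7 CPM (-1.05, -1.60 to -0.51) and Hoxb5 from 38.7 to 16.9 CPM (-1.20, -1.97 to -0.43) in stromal nuclei, while Hoxb3 was 73.7 and 65.2 CPM (-0.18, -0.64 to 0.30). The stromal makeup differed between the libraries, with 285 of 688 PBS and 487 of 922 OVA stromal nuclei gated as fibroblasts. Within myofibroblasts Hoxb gave 299.9 and 187 CPM (-0.68, -1.12 to -0.24) and within fibroblasts 150.2 and 107 CPM (-0.49, -0.97 to 0.01).

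By gene and gate, few members passed 2-fold. In fibroblasts 1 of the 5 members tested, Hoxb5, was at least 2-fold lower in OVA, where 2.94% of 7444 genes were, and 0 were higher, where 4.62% were. In myofibroblasts 2 of 5, Hoxb4 and Hoxb5, were lower, where 3.24% were, and 0 were higher, where 4.98% were. In pericytes 1 of 2, Hoxb4, was lower, where 4.5% were, and 0 were higher, where 6.33% were. The counts behind these calls were small, with 9 PBS and 12 OVA UMIs for Hoxb5 in fibroblasts (-1.07, -2.44 to 0.35) and 13 and 12 UMIs for Hoxb4 in pericytes (-1.05, -2.31 to 0.20), so that both intervals spanned 0. In myofibroblasts the differences were -1.05 (-1.89 to -0.22) for Hoxb4 and -1.36 (-2.51 to -0.25) for Hoxb5. On the scale of all UMIs, of these 4 calls only Hoxb5 in myofibroblasts (-1.16) stayed past 2-fold, with -0.95 for Hoxb5 in fibroblasts and -0.86 and -0.90 for Hoxb4 in myofibroblasts and pericytes. The median log2 difference of the members was -0.29, -0.17 and -0.42 in the 3 gates, against 0.04, 0.06 and 0.09 over all genes tested. In immune nuclei the summed Hox level was 86.8 CPM in PBS and 40.4 CPM in OVA (-1.10, -1.71 to -0.50), and the 6 other stromal genes went from 1854 to 1136 CPM in the same nuclei. Epithelial nuclei gave 37.0 and 13.7 CPM, and the 6 genes went from 928 to 272 CPM in AT1 but from 762 to 786 CPM in AT2 nuclei. The part of free stromal RNA in these differences was not tested.

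Chromatin was compared over 79 regions of the 4 windows that were called in both libraries, of 101838 such regions in all, as counts per 1000000 counts in those regions (accessibility CPM). A fragment with both ends in a region gives 2 counts, and 88.3% and 88.5% of the values above 0 were even, so intervals were computed from the counts divided by 2. Hox regions were most accessible in stromal nuclei, at 908 accessibility CPM in PBS and 965 in OVA, over 67.9 and 68.8 kb. Immune nuclei gave 496 and 490.0, and epithelial nuclei 350.1 and 320.2. The log2 difference of stromal from immune nuclei was 0.87 (0.77 to 0.97) and 0.98 (0.90 to 1.06), smaller than that of the RNA. Of 76 regions with enough counts, 28 were at least 2-fold higher in stromal nuclei in both libraries, where 20.1% of all regions were, and 1 was lower, where 29.9% were. At gene starts 16 of 44 were higher, where 16.3% of all gene-start regions were, and 0 were lower, where 18% were.

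By cluster the stromal to immune log2 difference was 0.97 and 1.16 for the Hoxa window and 1.00 and 1.16 for the Hoxb window in PBS and OVA. It was 0.35 (0.02 to 0.67) and 0.27 (0.01 to 0.53) for the Hoxc window and 0.60 (0.34 to 0.86) and 0.48 (0.28 to 0.69) for the Hoxd window, the clusters almost without RNA. In stromal nuclei the Hoxc regions gave 8.42 and 9.16 accessibility CPM per kb and the Hoxd regions 9.09 and 9.37. The Hoxa regions gave 19.5 and 20.6 and the Hoxb regions 11.6 and 12.0. All regions compared had been called accessible in both libraries beforehand, and no value per kb over all regions is given beside these. Whether the Hoxc and Hoxd regions were more open than others is therefore not shown.

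Over all windows together, the difference varied with the paralog group of the nearest gene start. Regions nearest to genes of groups 1 to 5 differed by 1.22 (1.08 to 1.36) in PBS and 1.37 (1.26 to 1.49) in OVA, those nearest to groups 6 to 8 by 0.65 and 0.86, and those nearest to groups 9 to 13 by 0.43 and 0.40. The Hoxa cluster was split most clearly. Of its 15 regions nearest to groups 1 to 5, 11 were at least 2-fold higher in stromal nuclei in both libraries (1.41 and 1.57 over all 15), and of its 8 regions nearest to groups 9 to 13, 0 were (-0.03, -0.35 to 0.28, and -0.01, -0.28 to 0.26). Near groups 6 to 8 it was 1 of 3. The Hoxa3 start used here lies between those of Hoxa6 and Hoxa7, so regions nearest to it were counted under groups 1 to 5. In the Hoxb window 6 of 13 tested regions near groups 1 to 5 were higher. So were 3 of 6 near groups 6 to 8 and 2 of 8 near groups 9 to 13, with no steady fall along the cluster. Of all regions tested, 20.1% were higher.

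**Figure D5:**
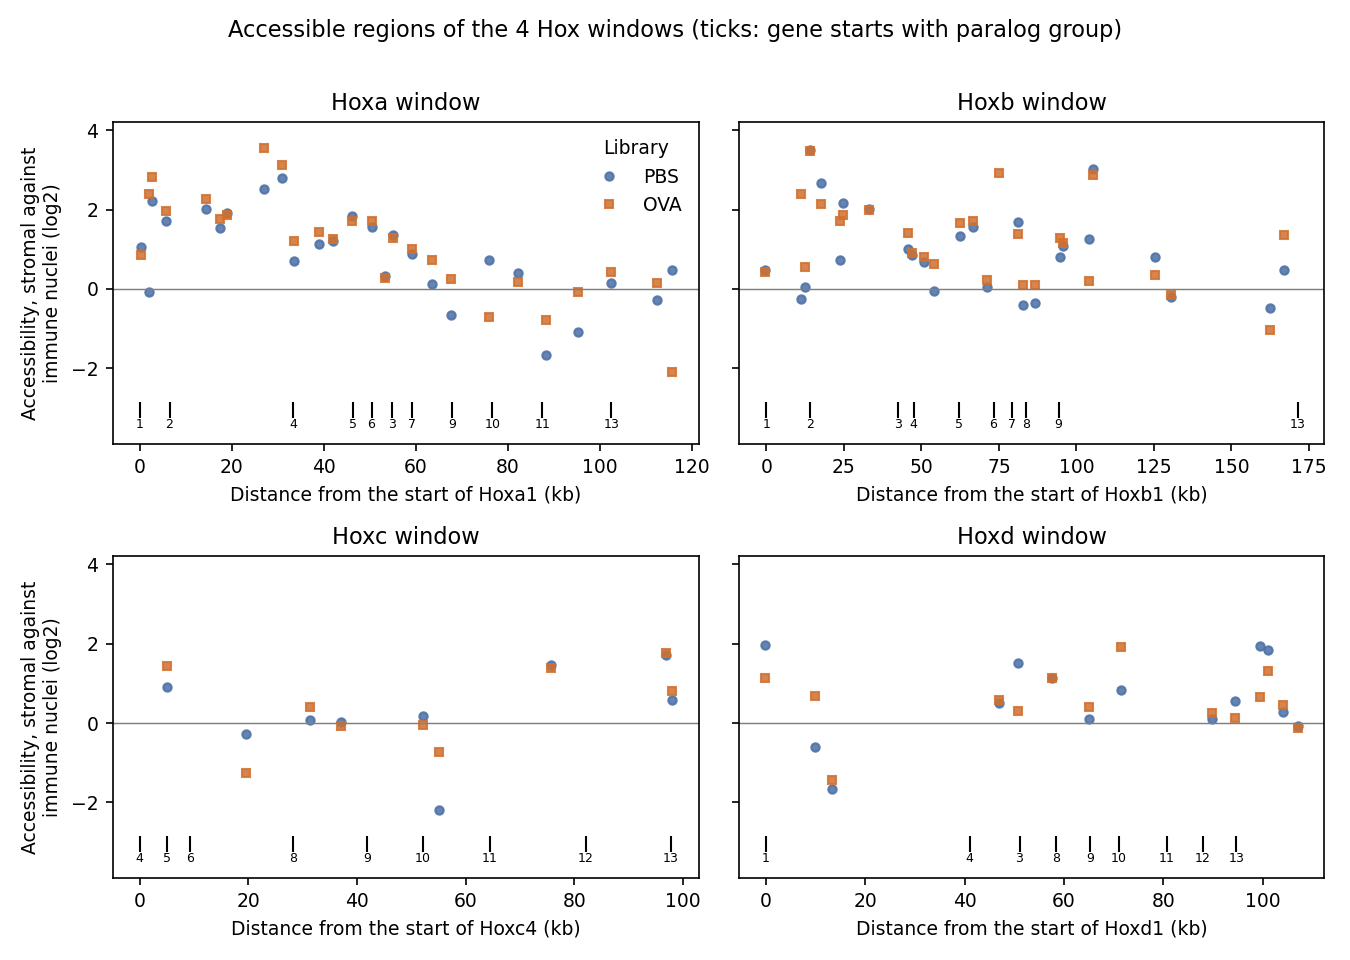
Log2 difference of accessibility between stromal and immune nuclei (y axis) for each region of the 4 Hox windows, by distance from the start of the lowest-numbered gene in kb (x axis), in the PBS (circles) and OVA (squares) library. Ticks are gene starts with their paralog group. In the Hoxa window points lie mostly above 0 near groups 1 to 7 and scattered around 0 near groups 9 to 13.

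The start of Hoxa5 was the most open Hox start in stromal nuclei, at 63.0 accessibility CPM in PBS and 51.0 in OVA, against 17.7 and 15.5 in immune and 9.09 and 4.38 in epithelial nuclei. The promoter sequence printed for Hoxa5 lies inside this region. At Hoxa11 the order was turned, with 2.50 and 3.58 accessibility CPM in stromal and 7.97 and 6.20 in immune nuclei (-1.67, -3.26 to -0.33, and -0.79, -1.87 to 0.22), the lowest ratio of the Hoxa regions. The highest ratios of the cluster were at chr6:52184910-52185861 (2.53 and 3.56), 5891 bases from the Hoxa4 start, and at chr6:52188816-52189701 (2.80 and 3.11), 2051 bases from it. The latter was most open in fibroblasts, at 39.9 and 46.2 accessibility CPM, against 10.9 and 5.86 in myofibroblasts.

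In the Hoxb window the start of Hoxb2 (chr11:96351420-96352268) stood far above immune nuclei in both libraries (3.49 and 3.48), with 17.5 and 15.7 accessibility CPM in stromal and 1.56 and 1.40 in immune nuclei. A region 1470 bases from the Hoxb6 start (chr11:96290112-96291005) gave 41 counts in stromal and 0 in immune nuclei in PBS (log2 difference above 2.61, the lower bound of its interval), and 90 and 14 in OVA (2.92). It was most open in myofibroblasts, at 14.9 and 22.6 accessibility CPM against 2.97 and 6.39 in fibroblasts, the reverse of the region near Hoxa4. The lowest ratio was at chr11:96202512-96203992, 8195 bases from Hoxb13 (-0.47 and -1.05, with intervals spanning 0).

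In the Hoxc window the regions at chr15:102921589-102922542, near the Hoxc13 start (1.73 and 1.77), and at chr15:102942735-102943729 (1.47 and 1.40) were the most stromal, and chr15:102963385-102964390, near Hoxc10, the least (-2.19 and -0.73, both intervals spanning 0). In the Hoxd window they were chr2:74661308-74662373, near Hoxd13 (1.85 and 1.31, the latter with an interval spanning 0), and the Hoxd1 start at chr2:74762599-74763635 (1.96 and 1.13). The least stromal Hoxd region, chr2:74749141-74750035, was also the 1 Hox region at least 2-fold lower in stromal nuclei in both libraries (-1.67 and -1.43). It lies between the end of Hoxd3 and the start of Hoxd1 and was most open in ILC2, at 16.2 and 15.5 accessibility CPM, against 1.71 and 2.61 in macrophages.

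ILC2 differed from macrophages in Hox accessibility although not resolvably in Hox RNA. Over the 79 regions ILC2 gave 580.4 and 553.6 accessibility CPM and macrophages 381 and 367, a log2 difference of 0.61 (0.43 to 0.78) in PBS and 0.59 (0.44 to 0.75) in OVA. The difference was 0.77 and 0.96 in the Hoxb window and 0.92 and 1.06 in the Hoxc window. Hoxa regions near groups 1 to 5 did not differ beyond counting error (0.23, -0.12 to 0.59, and 0.04, -0.27 to 0.34). Endothelial nuclei stood above macrophages by 0.96 (0.72 to 1.19) and 1.01 (0.69 to 1.32), the direction of their RNA.

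Among stromal gates the Hoxa window was less open in myofibroblasts than in fibroblasts, by -0.28 (-0.48 to -0.08) in PBS and -0.30 (-0.46 to -0.14) in OVA, the direction of the Hoxa RNA but smaller. The Hoxb window did not differ beyond counting error (-0.01, -0.26 to 0.23, and -0.15, -0.35 to 0.04), whereas Hoxb RNA was higher in myofibroblasts. Between libraries, Hox regions of fibroblasts gave 944 accessibility CPM in PBS and 1019 in OVA (0.11, -0.01 to 0.23), and those of the Hoxb window in myofibroblasts 285 and 299.8 (0.07, -0.15 to 0.30), beside the lower Hoxb RNA of the OVA library.

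Other genes of the same pathway were counted from lists, beside the 17.1% of all genes that were at least 2-fold higher in stromal and the 14.7% that were higher in immune nuclei. Of 9 genes of the TALE class (Pbx, Meis and Pknox), which encode the DNA-binding partners of Hox proteins, 8 could be tested, 5 were at least 2-fold higher in stromal than immune nuclei in both libraries, and 0 were higher in immune nuclei. Meis1 gave 839 and 744 CPM in stromal and 172 and 193 CPM in immune nuclei, Meis2 252 and 257 against 45.3 and 34.9, and Pbx3 186 and 179 against 77.3 and 80.8. Pbx3 was higher still in epithelial nuclei, at 279 and 341 CPM, where Hox RNA was lowest. Meis1, like Hoxb4, was higher in myofibroblasts (1085 and 851 CPM) than in fibroblasts (743 and 750.5).

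Of 18 retinoic acid pathway genes 11 could be tested, 5 were higher in stromal and 1 in immune nuclei, where 17.1% and 14.7% of all genes were. Aldh1a1, which makes retinoic acid, gave 52.5 and 47.3 CPM in stromal and 3.77 and 9.51 CPM in immune nuclei. Rarb, a receptor of retinoic acid and one of its targets, gave 7.55 and 2.38 CPM in immune nuclei and lay at 96.4 and 84.9 CPM in myofibroblasts against 10.9 and 10.7 CPM in fibroblasts.

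Of 21 Polycomb and Trithorax genes 19 could be tested, 2 were higher in stromal and 2 in immune nuclei, near the shares of all genes. The 2 immune genes were Eed, a core subunit of the complex that methylates H3K27, with 55.0 and 54.4 CPM in stromal and 136 and 174 CPM in immune nuclei, and Kdm6b, a demethylase of the same mark, with 226 and 238 against 455 and 614 CPM. The 2 stromal genes were Ring1 and Pcgf2, subunits of the other Polycomb complex, with 66 and 80 UMIs in all. Of 12 genes that mark lung mesenchyme and its position, 11 could be tested and all 11 were higher in stromal nuclei. They include the T-box genes Tbx2 (384 and 384 against 49.0 and 34.1 CPM), Tbx4 (290.0 and 292 against 39.6 and 24.6) and Tbx5 (334 and 247 against 52.8 and 19.8), and Lef1, a mediator of Wnt signals (167 and 172 against 50.9 and 30.9).

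Other transcripts in and near the clusters were counted too. Of 9 non-coding transcripts of the clusters, 3 could be tested and 2 were higher in stromal nuclei: Hotairm1, at the low-numbered end of the A cluster, with 28.7 and 28.3 CPM in stromal and 1.89 and 3.17 CPM in immune nuclei, and Hoxb3os, with 13.7 and 10.9 against 3.77 and 1.59 CPM. Hotair, Hottip and Hoxa11os, at the high-numbered end of their clusters, gave 0 UMIs. Of 53 genes that are no members and start inside a cluster or within 250 kb of its outermost Hox starts, 17 could be tested. In stromal nuclei 4 were higher (Hotairm1, Gm15050, Hoxb3os and Calcoco1), where 17.1% of all genes were, and in immune nuclei 1, where 14.7% were. Gm15050 and Hoxb3os start inside a cluster and Hotairm1 0.6 kb from one, so only Calcoco1, at 200.2 kb, lies farther off. Hotairm1 and Hoxb3os are also among the non-coding transcripts counted above. The 1 gene higher in immune nuclei was Skap1, a T-cell adaptor gene beyond the low-numbered end of the B cluster. It had 24 and 14 UMIs in stromal and 282 and 952 in immune nuclei, of which ILC2 held 271 and 917 (1283 and 1675 CPM).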

How the data were processed

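The authors aligned the 10x Multiome reads to mm10 with Cell Ranger ARC 2.0.1 and deposited raw counts, 1 matrix per library, of UMIs per gene and of transposase cut sites per accessible region, with regions called separately in each library. The deposited barcodes numbered 8019 (PBS) and 5960 (OVA). Of the filters of the study, the first (at least 200 genes, at most 60% mitochondrial UMIs) was applied to them. Its limits of 1000 to 25000 RNA and 1000 to 100000 accessibility counts served only as an alternative, the joint filter. Its limits on chromatin quality scores were not applied, so the nuclei are not the set of the study. A nucleus was gated when at least 2 marker genes were found, at 3 times the mean marker rate of its library at its depth or more, with a lead of 2 marker genes over other types. Nuclei passing gates of more than 1 lineage were removed as doublets, and no doublet caller was run. Counts were summed per gate and library and divided by all nuclear-gene UMIs. Sums have exact Poisson intervals, ratios exact conditional binomial intervals and shares Clopper-Pearson intervals. Genes needed 20 UMIs and regions 50 counts over the 2 gates and both libraries to be compared, and a difference was counted at 2-fold, in both libraries where gates were compared. Zero counts were bounded by a floor of 3 counts. The 2-fold rule and the ratio intervals were tested on gene sums simulated for the fibroblast and macrophage gates. Gating and thinning were not tested in this way.

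Levels by gate are given for members with at least 20 UMIs. From each context list at most 4 genes with at least 100 UMIs and a 2-fold difference in both libraries were named, some of which are not reported here, and in each cluster the 2 regions with the largest and the 1 with the smallest ratio of stromal to immune nuclei. Genes named beyond this (Hoxb2, Ring1, Pcgf2 and the transcripts beside the clusters) were chosen after their values were seen. The members, gates and lists were chosen with earlier results of these data known. Alternatives covered the mitochondrial limit, doublets, gates, a joint RNA and accessibility filter, gene and region minimums, fold, window flank, overlap and denominators. Python 3.11.15, NumPy 2.4.6, SciPy 1.17.1, pandas 2.3.3 and matplotlib 3.10.9 were used.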

Additional observations from a re-analysis of the deposited data

How the results depend on the processing

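Of 99 alternatives over 17 results, 87 left the value within its counting error or the count within the tolerance used, 12 moved it and 0 reversed it. The limit of 20% mitochondrial UMIs moved most. With it, the log2 difference of Hox RNA between stromal and immune nuclei was 1.22 in PBS and 1.08 in OVA with gates set anew, and 0.98 and 2.24 with the gates held, a setting chosen after seeing the data. The ILC2 to macrophage difference in OVA became -2.08 with gates set anew, and no PBS value could be given, since both gates had 0 Hox UMIs. The number of Hox genes higher in fibroblasts than macrophages was 0 with gates set anew, 3 with gates held and 3 with a minimum of 50 UMIs, against 5. Hoxb4 and Hoxb5 had too few UMIs to be tested at that minimum. The Hoxa share was 73.9% in PBS fibroblasts under a stricter gate and 22.2% in PBS myofibroblasts under the 20% limit, both added after seeing the data. The stromal to immune difference in accessibility was 0.76 in PBS and 0.87 in OVA when scaled to counts in gene-start regions. The causes of these shifts were not tested. No paired analysis was possible because the PBS and the OVA group hold a single library apiece. Depth limited all statements on genes with few UMIs, on endothelial nuclei and on immune nuclei with little mitochondrial RNA.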

Other observations

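Among 8361 genes that are neither Hox genes nor gate markers, those whose level followed the summed Hox level most closely over 18 points (9 gates in each of the 2 libraries, which share depth and background within a library) were Tshz2 (Pearson r 0.957), Lama4 (0.951), Adamts1 (0.946), Ptprs (0.939) and Iigp1 (0.938), as a description without a test. Tshz2, a zinc finger transcription factor, lay at 587 CPM in PBS and 583 CPM in OVA fibroblasts and at 80.0 and 28.8 CPM in macrophages. Lama4, a laminin chain of vessel basement membranes, lay at 675 and 809 CPM and at 72.0 and 59.6 CPM in the same gates.

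In stromal nuclei the values differed less with the mitochondrial share than in immune nuclei, where the intervals overlapped too. With at most 20%, 20 to 40% and 40 to 60% mitochondrial UMIs it was 428, 418 and 387 CPM in PBS and 349, 334 and 242 CPM in OVA, with overlapping intervals in each library.

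In endothelial nuclei, where Hoxa5 was the leading Hox gene, Meis2 lay at 436 CPM in PBS and 948 CPM in OVA, above the 380 and 350 CPM of fibroblasts.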
